A study of Homo sapiens with 4 samples.

Results

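The nuclear-encoded subunits of the mitochondrial respiratory chain and ATP synthase were examined in human prostate cancer cells in which monoamine oxidase A (MAOA) had been knocked down. They were taken by symbol, as the rows that start with the NDUFA, NDUFB, NDUFC, NDUFS, NDUFV, UQCR, COX4I, COX5, COX6, COX7, COX8 and ATP5 prefixes, together with SDHA, SDHB, SDHC, SDHD and CYC1. Assembly factors of the NDUFAF series, NDUFA4L2, pseudogenes and antisense symbols were left out. This gave 89 of the 25343 genes listed, of which 81 had a mean level of at least 1 CPM (reads of a gene scaled to a common library size) in each line and 80 had it in both lines. NDUFA4 was counted with complex IV, where its protein is now placed. ATP5S and ATP5SL carry the prefix of complex V but are not subunits of it, and COX7A2L is an assembly factor of supercomplexes that carries the prefix of complex IV.

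The series held 4 RNA-seq libraries of total RNA, 1 for each group: MAOA knockdown in C4-2B ENZR, its control in C4-2B ENZR, MAOA knockdown in LNCaP, and its control in LNCaP. LNCaP is an androgen-responsive line from a prostate cancer metastasis, and C4-2B is a subline derived from it. C4-2B ENZR is resistant to enzalutamide, an androgen receptor antagonist, and both of its groups were grown with 20 µM of the drug, whereas no LNCaP group received it. The knockdown cells stably expressed a lentiviral short hairpin against the coding region of MAOA, and the control cells carried a non-targeting hairpin, so that all 4 groups had been infected and selected with antibiotic. The library names of the 2 knockdowns write the hairpin differently, and whether both lines carried the same one is not known here. MAOA is an enzyme of the outer mitochondrial membrane that oxidises monoamines and releases hydrogen peroxide.

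Complexes I and II pass electrons from NADH and succinate to ubiquinone, complex III passes them to cytochrome c, and complex IV passes them to oxygen. Complexes I, III and IV pump protons across the inner mitochondrial membrane, and complex V, the ATP synthase, uses the gradient to make ATP. Most subunits are encoded in the nucleus and imported, and they assemble with subunits encoded by mitochondrial DNA. The symbols of 13 such mitochondrially encoded subunits were looked up. Of these, 0 were among the genes listed, so they could not be analysed here.

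The libraries held 23679869 and 23479051 reads assigned to genes in the knockdown and control of C4-2B ENZR, and 52012696 and 52550452 in the knockdown and control of LNCaP. MAOA itself was at 219 CPM in knockdown C4-2B ENZR, against 327 CPM in the control (log2 ratio -0.58), and at 140 CPM in knockdown LNCaP, against 445 CPM in the control (-1.67). It fell over both lines by limma on the within-line ratios (adjusted p = 4.44e-12, Benjamini-Hochberg over 13114 genes), but DESeq2 did not call it (adjusted p = 0.315). All 11 luminal prostate markers examined had a mean of at least 1 CPM in both lines, but KLK3 was low in C4-2B ENZR. It was at 6.34 CPM in knockdown C4-2B ENZR, against 3.72 CPM in the control. In LNCaP it was at 2716 CPM in knockdown cells, against 2391 CPM in control cells. The 3 basal markers summed to 0.122 and 0.0404 CPM in knockdown and control C4-2B ENZR, and to 1.15 and 1.15 CPM in those of LNCaP. The leukocyte gene CD3E and the fibroblast gene COL1A2 had 0 reads in every library. Other markers of such cells had reads: the 5 fibroblast and smooth muscle markers summed to 55.8 CPM in knockdown C4-2B ENZR, against 45.8 CPM in the control, and to 61.5 CPM in knockdown LNCaP, against 55.0 CPM in the control, nearly all from COL1A1. CD68, of macrophages, was at 11.1 CPM in knockdown C4-2B ENZR, against 9.87 CPM in the control, and at 24.8 CPM in knockdown LNCaP, against 17.1 CPM in the control. The 3 endothelial markers summed to 3.62 and 4.57 CPM in knockdown and control C4-2B ENZR, and to 17.5 and 15.1 CPM in knockdown and control LNCaP, and the part of such genes in the ratios was not tested. As deposited, the median log2 ratio over all genes was 0.00 in C4-2B ENZR (13810 genes) and 0.11 in LNCaP (13787 genes), so LNCaP ratios are read against 0.11.

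Levels of the respiratory chain genes differed little between knockdown and control cells. Their median log2 ratio, knockdown over control on the CPM + 1 scale, was 0.08 for C4-2B ENZR and 0.09 for LNCaP. Against the medians of all genes, this lay above in C4-2B ENZR, with 57 of 81 members higher, and below in LNCaP, where 33 of 81 members were higher and the median of the members was -0.03 after centring. The standard deviation over members was 0.13 and 0.19 in C4-2B ENZR and LNCaP, against 0.25 and 0.31 over all genes. All genes include many at low levels. Over the 5939 genes with a mean of at least 30 CPM in both lines it was 0.19 and 0.27, closer to the members. In bulk RNA, fewer cells that express a gene and less RNA per cell cannot be told apart.

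A difference was called within a line where the log2 ratio passed 0.32 in either direction. COX7C and COX7A2L were the 2 members called higher in C4-2B ENZR, where 7.78% of all genes were higher by that much, and 0 members were lower, where 5.45% of all genes were. In LNCaP 6 members were higher as deposited (NDUFA5, UQCRB, COX6A1, COX7A2L, COX7C and ATP5G2), against 21.3% of all genes, and 0 were lower, against 6.93% of all genes. After LNCaP ratios were centred on the median of all genes, COX7A2L and COX7C were the 2 members called higher (11.7% of all genes) and ATP5G1, ATP5J and ATP5J2 were the 3 called lower (12.9% of all genes). Centring left C4-2B ENZR at 2 and 0, beside 7.68% and 5.5% of all genes. Each group is a single library, so nothing within a line could be tested against replicates.

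Over both lines, limma tested the 2 within-line ratios of each gene, with the lines as the only replication. COX7C and COX7A2L rose and 0 members fell, beside 4.22% of the 13114 genes tested that rose and 1.49% that fell. At an unadjusted p below 0.05, 4 members were higher and 0 lower in that test, beside 13.8% and 5.39% of all genes. By edgeR on the recovered reads 0 members fell as well, under the deposited scaling (1.56% of all genes fell; at an unadjusted p below 0.05, 0 members and 5.42% of all genes were lower) and under recomputed scaling (0.869% of all genes; unadjusted, 2 members and 9.39% of all genes). By DESeq2 0 members fell, beside 0.686% of all genes, and unadjusted 1 member and 5.03% of all genes were lower. The labels do not say that the libraries of a line came from separate cultures. The limma p-values set the mean ratio of these 2 related lines against a spread taken mostly from all genes. That fit has 1 residual and 276 prior degrees of freedom. None of the p-values measures a spread between replicate cultures.

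**Figure D1:**
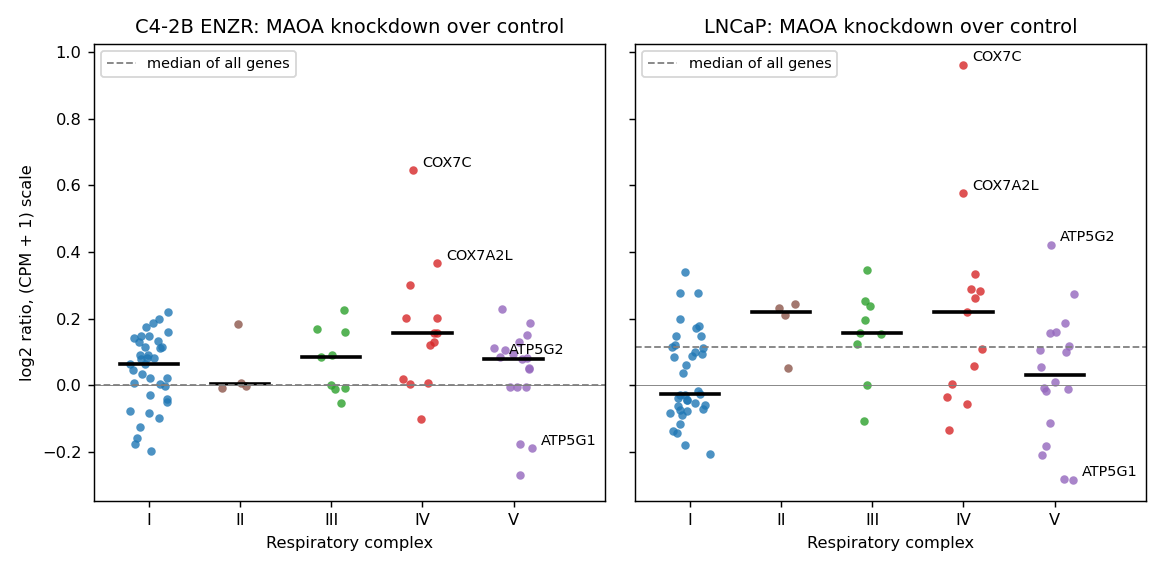
Log2 ratio of MAOA knockdown over control (CPM + 1 scale) for each member with a mean of at least 1 CPM, by respiratory complex, in C4-2B ENZR on the left and LNCaP on the right. Points are genes, black lines are complex medians and the dashed line is the median of all genes (0.00 and 0.11); COX7C stands at 0.65 and 0.96, apart from the other members.

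COX7C, a small subunit of cytochrome c oxidase, changed most of all members in both lines. It was at 214 CPM in knockdown C4-2B ENZR, against 137 CPM in the control, from 5264 and 3376 reads. In LNCaP it was at 303 CPM in knockdown cells, against 155 CPM in control cells, from 14797 and 8797 reads. The knockdown library was the higher in both lines, by a log2 ratio of 0.65 (95% counting interval 0.59 to 0.71) in C4-2B ENZR and of 0.96 in LNCaP, and 98.8% and 99.3% of all genes had a lower ratio in those lines. By limma COX7C rose by 0.80 ± 0.13 on the log2 scale over both lines (SE, adjusted p = 4.05e-07), and it passed under all 11 alternatives tried, with adjusted p-values of up to 0.00698. Counting intervals, here and below, are exact, apply to the ratio of scaled reads without the pseudocount, and cover counting error only.

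COX7A2L, which joins complex III to complex IV in supercomplexes, was at 67.7 CPM in knockdown C4-2B ENZR, against 52.3 CPM in the control. In LNCaP it was at 70.6 CPM in knockdown cells, against 47.0 CPM in control cells. Its log2 ratios were 0.37 (0.27 to 0.48) in C4-2B ENZR and 0.58 (0.51 to 0.66) in LNCaP. It rose by 0.47 ± 0.13 over both lines by limma (SE, adjusted p = 0.00777), but 4 of the 11 alternatives ended the call, with adjusted p-values between 0.0531 and 0.0987. Of the transcript sequence of these genes, 3.99% of the 50-base words of COX7C and 0.0536% of those of COX7A2L occur in transcripts of other genes.

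**Figure D2:**
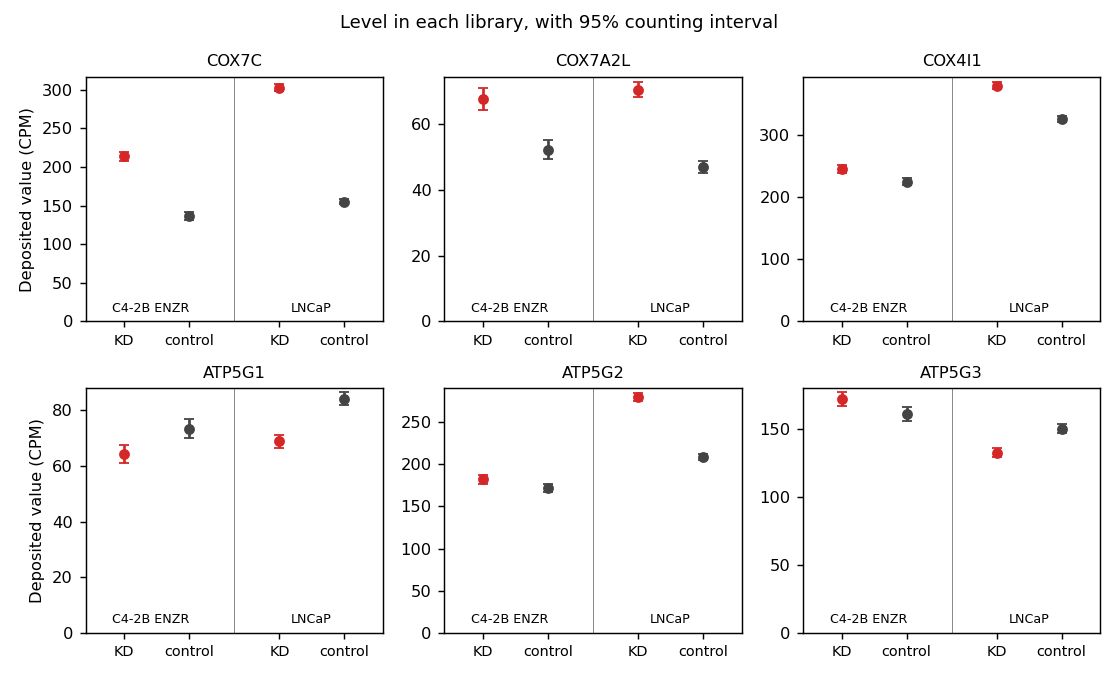
Deposited level (CPM, linear axis from 0) of 6 members in each of the 4 libraries, with knockdown (KD, red) left of control (grey) in each line and bars for the 95% Poisson counting interval. COX7C and COX7A2L are higher in the knockdown of both lines, ATP5G1 is lower in both, and ATP5G3 is higher in C4-2B ENZR (172 against 161 CPM) and lower in LNCaP (133 against 151 CPM).

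The letters around the annotated transcription start were then set beside the ratios. Transcripts that begin with a C followed by a run of pyrimidines carry the 5′ terminal oligopyrimidine sequence, known from ribosomal protein mRNAs, through which their translation and stability respond to growth signals. This description was chosen after the values had been seen. With a C at the start and at least 4 further C or T letters, 9 of the 65 members with a promoter entry in RefSeq (13.8%) had such a start, against 5.42% of the 10285 genes tested that had an entry and 4.04% of all 27305 genes in the promoter table. Only the first start listed for each gene was used, here and for the promoter windows below. With any listed start counted, the shares were 13.8% of the members and 7.36% of the genes tested. The 9 starts are shown because they include COX7C, COX7A2L and ATP5G2, 3 of the 4 highest members by mean ratio over both lines. Each is 30 bases, 15 before the start and 15 from it, with the C and its pyrimidine run in capitals, on the strand of the gene, from RefSeq on GRCh38.p14.
COX7C, chr5:86617926-86617955, plus strand: ccatttcccatctttCTTTTCagtccttgc
COX7A2L, chr2:42361203-42361232, minus strand: ccggggaggcggggtCCTTCTCTggggcgg
ATP5G2, chr12:53676069-53676098, minus strand: cttcccgctgctccgCCCCTCTCTgtcttc
UQCRH, chr1:46303683-46303712, plus strand: tgacccttacaagtcCTTCTTgatcctgaa
COX4I1, chr16:85799680-85799709, plus strand: cggcgcggccttgctCTCTTCCggtcgcgg
ATP5E, chr20:59032321-59032350, minus strand: cttctgtggtctgatCTTCCTgcggctgaa
ATP5L, chr11:118401591-118401620, plus strand: ggtcctgcagcgggtCCTTCCggcgggtga
ATP5O, chr21:33915790-33915819, minus strand: cccttgcgcgtttctCTCTTCCCactcggg
NDUFC1, chr4:139302537-139302566, minus strand: tcgcaatgggccccaCCTCCCgagaagagt

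For comparison, the 5 members with the lowest mean ratio among those with an entry and no such start read as follows, with the start at the base after the fifteenth and no capitals.
ATP5G1, chr17:48892772-48892801, plus strand: gaatggagaaggtccaggacacgtgggtgg
NDUFS3, chr11:47579059-47579088, plus strand: ttccgtccgctgcctagtctgcatctgagt
NDUFA6, chr22:42090758-42090787, minus strand: tgcttgcaaaggggtggggttgtggagtgg
ATP5J, chr21:25735040-25735069, minus strand: ctccacttcctcctcctgtttggcttctgt
NDUFA8, chr9:122159765-122159794, minus strand: tgttgccggatgcgcatgcgcaggcgccgt

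The 9 members with a pyrimidine start had a median log2 ratio of 0.13 in C4-2B ENZR and 0.22 in LNCaP, against 0.06 and 0.05 for the 56 without it. All 9 lay above the median of all genes in C4-2B ENZR, and 6 of the 9 did so in LNCaP. ATP5L, ATP5O and NDUFC1, with ratios of -0.01, -0.01 and 0.04 in LNCaP, were the ones below. The 9 include COX7C, COX7A2L and ATP5G2, whose high ratios had been seen before this start was chosen. The medians and counts of the 9 therefore describe these members and are not a test. Over the genes tested, the medians were 0.05 with such a start and -0.01 without it in C4-2B ENZR, while LNCaP had 0.22 with it and 0.11 without it. Leaving out the members and the cytosolic ribosomal proteins gave 0.03 with it and -0.01 without it for C4-2B ENZR, and 0.20 with it and 0.11 without it for LNCaP. These are counts on annotated starts, and where transcription began in these cells was not measured.

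**Figure D3:**
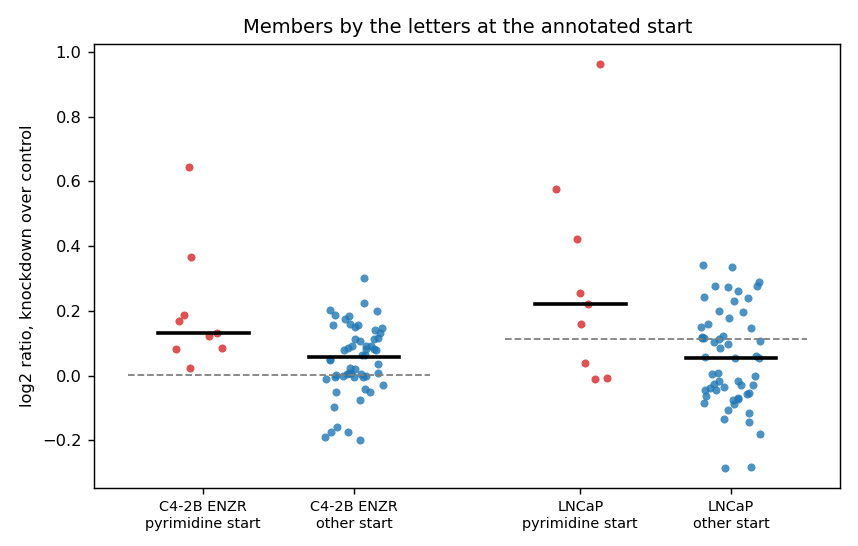
Log2 ratio of MAOA knockdown over control for the 65 members with a RefSeq promoter entry, split by whether the annotated start has a C followed by at least 4 pyrimidines (9, red) or not (56, blue), in each line. Black lines are medians (0.13 and 0.06 in C4-2B ENZR, 0.22 and 0.05 in LNCaP) and dashed lines are the medians of all genes.

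Cytosolic ribosomal proteins, which carry that start in 43 of 63 cases (68.3%), lay higher as a list than the respiratory chain. Their median log2 ratio was 0.24 in C4-2B ENZR (76 of 78 above the median of all genes) and 0.43 in LNCaP (78 of 79), and RPS21, a protein of the small subunit, was the 1 that rose by limma (0.41 ± 0.14, SE, adjusted p = 0.0476). The 20 without a pyrimidine start also had medians of 0.24 and 0.39. Their summed level was 79949 CPM in knockdown C4-2B ENZR, against 67887 CPM in the control, and 97225 CPM in knockdown LNCaP, against 71503 CPM in the control. Its part in the ratios of the respiratory chain genes was not tested.

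Promoter windows of 300 bases, 250 before and 50 after the start, were also searched on both strands for sequences bound by known activators of respiratory genes. A core site of NRF1, GCGCANGCG, occurred in 32.3% of the members' windows, against 15.6% of those of genes tested and 8.05% of all windows. The ETS core CCGGAAG, bound by GABPA, occurred in 29.2%, against 19.8% and 10.7%. The YY1 core AAGATGGC occurred in 16.9%, against 5.57% and 3.03%, and matches of the 3 motifs overlapped in 0 of the 65 windows. The windows of COX7C, COX7A2L and ATP5G1 held none of these letters on either strand, and that of ATP5G2 held the NRF1 core alone. Members with an ETS match had medians of 0.09 in C4-2B ENZR and 0.12 in LNCaP, against 0.07 and 0.02 without it. Members with an NRF1 match had medians of 0.02 and -0.00, against 0.09 and 0.09 without it. Those with a YY1 match had medians of 0.06 and 0.06, against 0.08 and 0.06 without it. Over all genes tested, the medians with an ETS match were -0.03 in C4-2B ENZR and 0.11 in LNCaP, against 0.01 and 0.12 without it. With an NRF1 match they were -0.02 and 0.11, against 0.00 and 0.11 without it. The motifs, too, were chosen after the values had been seen.

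Complex I, the NADH dehydrogenase, is the largest group with 37 members, and 0 of them passed limma in either direction. Its median log2 ratio was 0.06 in C4-2B ENZR, with 26 of 37 above the median of all genes, and -0.03 in LNCaP, with 10 of 37 above. The 7 core subunits, most of which hold the flavin and iron-sulphur centres or line the quinone pocket, had medians of -0.00 and -0.03. NDUFV1, which binds NADH and was picked out after its values were seen, was the only core subunit above the median of all genes in both lines, at 155 CPM in knockdown C4-2B ENZR, against 136 CPM in the control (0.19), and at 228 CPM in knockdown LNCaP, against 209 CPM in the control (0.12).

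Among the 30 accessory subunits of complex I the medians were 0.07 in C4-2B ENZR and 0.05 in LNCaP. NDUFB9, of the membrane arm, was the highest in C4-2B ENZR at 161 CPM in knockdown cells, against 138 CPM in control cells (0.22), and its ratio in LNCaP was 0.09. NDUFA6, of the family of LYR-motif proteins, was the lowest there at 73.6 CPM in knockdown cells, against 84.6 CPM in control cells (-0.20), and it was also below in LNCaP (-0.09). NDUFA5, next to the quinone module, was the highest in LNCaP at 46.9 CPM in knockdown cells, against 36.8 CPM in control cells (0.34). Its levels in C4-2B ENZR were 82.2 CPM in knockdown cells and 78.6 CPM in control cells (0.06), and limma did not call it (adjusted p = 0.395). The summed level of complex I differed by a log2 ratio of 0.03 in C4-2B ENZR and 0.04 in LNCaP.

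Complex II, the succinate dehydrogenase that is also an enzyme of the citric acid cycle, has 4 subunits, all encoded in the nucleus, and 0 of them passed limma. SDHB, the iron-sulphur subunit, was at 107 CPM in knockdown C4-2B ENZR, against 94.1 CPM in the control (0.18), and at 74.0 CPM in knockdown LNCaP, against 62.9 CPM in the control (0.23). SDHA, the flavoprotein subunit, had ratios of 0.01 and 0.05. The membrane anchors SDHC and SDHD were at 167 and 123 CPM in knockdown C4-2B ENZR, against 168 and 124 CPM in the control, and at 146 and 84.8 CPM in knockdown LNCaP, against 126 and 71.5 CPM in the control. Their ratios were therefore -0.01 and -0.00 for C4-2B ENZR and 0.21 and 0.24 for LNCaP, above the 0.11 of all genes in LNCaP alone; the difference between the lines was not tested.

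In complex III, the cytochrome bc1 complex, 0 of 9 members passed limma, and the medians were 0.09 for C4-2B ENZR and 0.16 for LNCaP. The 5 small subunits had the higher medians, 0.16 and 0.24. UQCRB, a small subunit next to the quinone sites, was at 166 CPM in knockdown C4-2B ENZR, against 149 CPM in the control (0.16), and at 152 CPM in knockdown LNCaP, against 119 CPM in the control (0.35). UQCRQ was the highest of the complex in C4-2B ENZR at 109 CPM in knockdown cells, against 93.4 CPM in control cells (0.23). UQCRH, the hinge protein that meets cytochrome c1, had ratios of 0.17 and 0.25. UQCR10, a small subunit close to cytochrome c1, had ratios of -0.01 and -0.00. Of the proteins that carry the electrons, UQCRFS1, the Rieske iron-sulphur protein, had ratios of -0.05 and -0.11, and CYC1, cytochrome c1, of -0.01 and 0.15. The core proteins UQCRC1 and UQCRC2, which carry no redox centre, had ratios of 0.00 and 0.09 for C4-2B ENZR and 0.12 and 0.16 for LNCaP.

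Complex IV, cytochrome c oxidase, had the highest median of the complexes in both lines, 0.16 in C4-2B ENZR (12 of 13 above the median of all genes) and 0.22 in LNCaP (7 of 13), where complex II also had 0.22, and both members that passed limma carry its prefix. COX4I1, which binds the catalytic core early in assembly, was at 244 CPM in knockdown C4-2B ENZR, against 224 CPM in the control (0.12), and at 379 CPM in knockdown LNCaP, against 325 CPM in the control (0.22). COX6A1, a small subunit of the dimer interface, was at 275 CPM in knockdown C4-2B ENZR, against 246 CPM in the control (0.16), and at 342 CPM in knockdown LNCaP, against 271 CPM in the control (0.33). COX5B, the zinc-binding subunit, had the next highest ratio after COX7C and COX7A2L in C4-2B ENZR, 0.30, and 0.26 in LNCaP, and limma did not call it (adjusted p = 0.174). COX7A2, the widely expressed relative of COX7A2L, had ratios of 0.16 and 0.29.

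The remaining complex IV subunits measured in both lines were called in neither. COX6C was at 119 CPM in knockdown C4-2B ENZR, against 103 CPM in the control (0.20), and at 117 CPM in knockdown LNCaP, against 96.3 CPM in the control (0.28). COX5A, which faces the matrix, had ratios of 0.13 in C4-2B ENZR and 0.11 in LNCaP. COX8A had ratios of 0.02 in C4-2B ENZR and 0.00 in LNCaP, COX6B1 of 0.00 and 0.06, and COX7B of 0.20 and -0.04. NDUFA4 was the lowest in LNCaP at 155 CPM in knockdown cells, against 171 CPM in control cells (-0.13), with a ratio of 0.01 in C4-2B ENZR. The summed level of the 12 members measured in both lines was 15.96% of the respiratory chain total in knockdown C4-2B ENZR, against 14.89% in the control, and 18.71% in knockdown LNCaP, against 16.92% in the control.

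The isoforms that are restricted to tissues such as heart, muscle, lung or testis were at or near 0 in these cells, apart from COX7B2 in C4-2B ENZR. COX4I2 had 0 reads in all 4 libraries, which allows up to 0.122 and 0.121 CPM in the knockdown and control of C4-2B ENZR and 0.0614 and 0.0529 CPM in those of LNCaP. COX6A2, COX7A1 and COX8C had at most 9 reads in any library. COX7B2, the testis relative of COX7B, was at 4.76 CPM in knockdown C4-2B ENZR, against 5.18 CPM in the control (117 and 128 reads), and at 0.634 CPM in knockdown LNCaP, against 0.951 CPM in the control (31 and 54 reads). COX6B2 had 19 and 9 reads in the knockdown and control of C4-2B ENZR and 47 and 59 reads in those of LNCaP, where its mean just reached 1 CPM. The further members under 1 CPM were ATP5L2, with 9 to 12 reads a library, UQCRHL, with 0 to 3, and the readthrough symbol NDUFC2-KCTD14, with 0 to 6.

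In complex V, the ATP synthase, 0 of 18 members passed limma, and the medians were 0.08 in C4-2B ENZR (12 of 18 above the median of all genes) and 0.03 in LNCaP (6 of 18). ATP5B, the catalytic beta subunit, had the most reads of all members, at 1477 CPM in knockdown C4-2B ENZR, against 1330 CPM in the control (0.15), and at 1330 CPM in knockdown LNCaP, against 1240 CPM in the control (0.10). The 5 subunits of the catalytic head all lay above the median of all genes in C4-2B ENZR, with a median of 0.13, and 2 of the 5 did so in LNCaP. ATP5D, the delta subunit of the central stalk, was the highest in C4-2B ENZR at 115 CPM in knockdown cells, against 97.9 CPM in control cells (0.23), and its ratio in LNCaP was 0.19. The readthrough ATP5J2-PTCD1 was the lowest in C4-2B ENZR (-0.27), but 85.9% of its 50-base words are shared with other genes, so its count is uncertain.

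The c-ring of complex V, which turns as protons pass, is built from a single mature peptide encoded by 3 genes that differ in their import sequence. ATP5G1 was at 64.2 CPM in knockdown C4-2B ENZR, against 73.3 CPM in the control (-0.19, interval -0.29 to -0.09), and at 69.0 CPM in knockdown LNCaP, against 84.2 CPM in the control (-0.28, interval -0.35 to -0.22). ATP5G2 was at 182 CPM in knockdown C4-2B ENZR, against 172 CPM in the control (0.08), and at 279 CPM in knockdown LNCaP, against 208 CPM in the control (0.42). ATP5G3 was at 172 CPM in knockdown C4-2B ENZR, against 161 CPM in the control (0.09), and at 133 CPM in knockdown LNCaP, against 151 CPM in the control (-0.18). ATP5G1 was therefore the lower in knockdown cells of both lines, ATP5G2 the higher in both, and ATP5G3 changed side; limma called none of them (adjusted p = 0.280, 0.262 and 0.903). With all libraries set to an equal sum, a scaling under which 4.98% of all genes fell, ATP5G1 was called by limma (adjusted p = 0.0410).

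Set against each other, the 3 genes' shares of c-ring reads do not depend on the scaling of a library. ATP5G1 gave 15.3% of them in knockdown C4-2B ENZR (95% exact binomial interval 14.7 to 16.0), against 18.0% in the control (17.3 to 18.8), and 14.3% in knockdown LNCaP (13.9 to 14.8), against 19.0% in the control (18.5 to 19.5). ATP5G2 gave 43.5% in knockdown C4-2B ENZR, against 42.2% in the control, and 58.1% in knockdown LNCaP, against 47.0% in the control. The summed level of the 3 genes was 419 CPM in knockdown C4-2B ENZR, against 406 CPM in the control (log2 ratio 0.04). In LNCaP it was 481 CPM in knockdown cells, against 443 CPM in control cells (0.12). On the same measure, the summed level of all genes had log2 ratios of 0.02 in C4-2B ENZR and 0.20 in LNCaP. Levels per kilobase used the annotated transcript with the longest coding sequence. On that measure ATP5G2 was the highest of the 3 in every library. It was at 305 and 288 CPM per kb in the knockdown and control of C4-2B ENZR and 468 and 349 in those of LNCaP. The transcripts taken had 614, 597 and 5484 nucleotides for ATP5G1, ATP5G2 and ATP5G3, so the order depends on the transcript chosen.

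Across the 80 members measured in both lines, the ratios in C4-2B ENZR and LNCaP had a Pearson correlation of 0.57 and a Spearman correlation of 0.44, against 0.40 and 0.42 over all 13114 genes. Without COX7C and COX7A2L the values for members were 0.37 and 0.40. These are correlations across genes, which are not independent and share the 4 libraries. Relative to each line's median of all genes, 25 members lay above in both lines, 15 below in both, 32 above in C4-2B ENZR and below in LNCaP, and 8 the opposite way. These were 31.2%, 18.8%, 40% and 10% of the members, beside 32.3%, 32.8%, 17.3% and 17.5% of all 13114 genes.

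**Figure D4:**
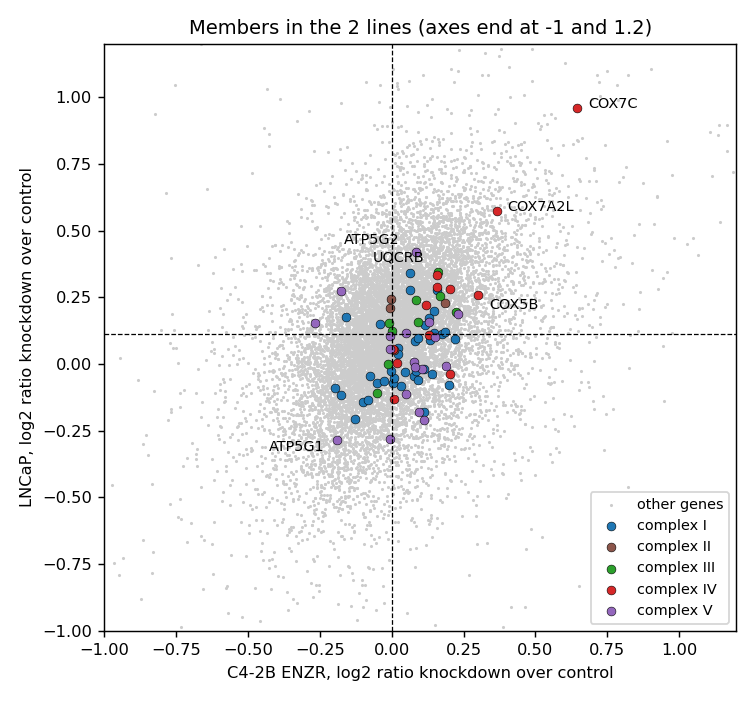
Log2 ratio of MAOA knockdown over control in C4-2B ENZR (horizontal) and LNCaP (vertical) for the 80 members, coloured by complex, over all other genes in grey; both axes stop at -1 and 1.2, and dashed lines mark the medians of all genes. COX7C (0.65, 0.96) and COX7A2L (0.37, 0.58) lie at the upper right, ATP5G1 (-0.19, -0.28) at the lower left, and 32 members lie at the lower right of those lines.

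Subunits are short proteins, with a median coding length of 473 nucleotides against 1440 for the genes tested. Over the 80 members the log2 ratio had a Pearson correlation with log2 coding length of -0.34 in C4-2B ENZR and -0.16 in LNCaP, against -0.02 and -0.04 over all genes. With COX7C and COX7A2L left out it was -0.29 and -0.07. With log2 transcript length it was -0.01 and 0.07. Members with at most 450 coding nucleotides had medians of 0.11 in C4-2B ENZR and 0.09 in LNCaP, against 0.05 and 0.09 for the longer ones. Over all genes, those with at most 450 coding nucleotides had medians of 0.02 and 0.13, against -0.00 and 0.12 for the longer ones.

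Genes that work with the respiratory chain were set beside it, in lists taken by function. Of 48 assembly factors, which build the complexes, 0 rose and 0 fell by limma, and the medians were -0.04 in C4-2B ENZR and 0.03 in LNCaP, both below those of the subunits. By the mean of both lines, the extremes were C6orf57 (SDHAF4, for complex II) and COA7 (for complex IV). C6orf57 had ratios of 0.29 and 0.42 (limma adjusted p = 0.245). Its ratio in C4-2B ENZR came from only 36 reads in the knockdown and 25 in the control. COA7 had ratios of -0.33 and -0.43 (limma adjusted p = 0.0604). Of 15 regulators of respiratory genes that passed the CPM minimum in both lines, 0 passed limma, with medians of -0.05 and 0.05. The nuclear receptor ESRRA was the highest of them by that mean, with ratios of 0.27 and 0.47 (adjusted p = 0.0530), and the coactivator PPRC1 the lowest, with -0.38 and -0.04.

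The 13 citric acid cycle genes (medians -0.02 and 0.13), the 8 carriers and transport proteins (0.04 and 0.18) and the 19 import proteins and chaperones (-0.02 and 0.03) also had 0 members past limma. At their extremes by the mean of both lines, IDH3G of the cycle had ratios of 0.15 and 0.41 and OGDH of -0.14 and -0.19. The adenine nucleotide carrier SLC25A6 had ratios of 0.28 and 0.57 (adjusted p = 0.0784) and the channel VDAC3 of -0.25 and -0.30. The import receptor TOMM20 had ratios of 0.17 and 0.63 and the import pore TOMM40 of -0.30 and -0.30. Of 77 mitochondrial ribosomal proteins, which translate the subunits encoded in mitochondrial DNA, MRPS6 rose (0.47 ± 0.15, SE, adjusted p = 0.0393) and MRPL51 fell by 0.39 ± 0.12 (SE, adjusted p = 0.0374). Their medians, -0.06 in C4-2B ENZR and -0.03 in LNCaP, lay below the medians of all genes, and 28 and 20 of the 77 were above them.

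**Figure D5:**
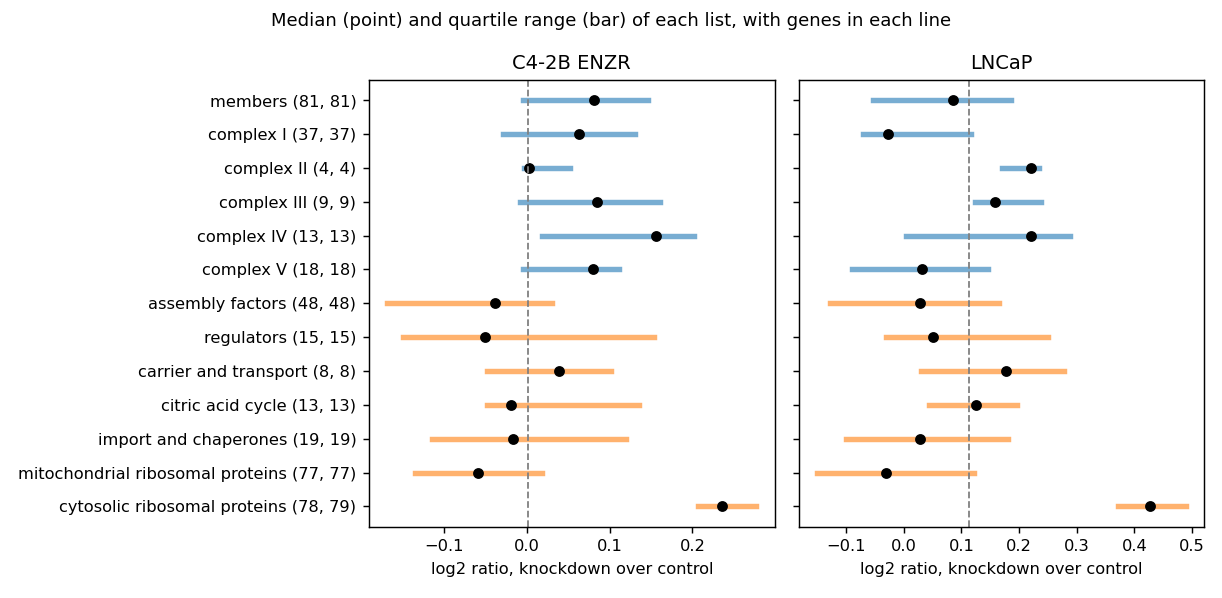
Median (point) and quartile range (bar) of the log2 ratio of MAOA knockdown over control for the members, each complex and each related gene list, in C4-2B ENZR on the left and LNCaP on the right, with the numbers of genes in the 2 lines in brackets and the median of all genes dashed. Cytosolic ribosomal proteins lie highest (0.24 and 0.43) and mitochondrial ribosomal proteins lowest (-0.06 and -0.03); complex IV is highest among the complexes (0.16 and 0.22).

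As a share of all reads, which uses no scaling, the members took 1.18% of the knockdown library and 1.13% of the control library in C4-2B ENZR, and 1.16% of the knockdown library and 1.24% of the control library in LNCaP. In LNCaP the summed level of the members was thus higher in knockdown cells as deposited (12351 against 11475 CPM) but a smaller share of the reads.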

How the data were processed

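RNA-seq of 4 libraries was analysed, as 50-base single reads per the labels' protocols. Per the submitters' processing notes, Bowtie2 2.1.0, RSEM 1.2.15, edgeR and the hg19 build were used, with no role stated for any of them. The deposited tables hold TMM-normalized values, 1 table per line: CPM for C4-2B ENZR, and for LNCaP a scaled signal that is called CPM in the text although the knockdown column sums to more than unscaled CPM can. All values in each column (100%) were whole reads within 0.01 read, so reads were recovered; those counts, made from the deposited values, served edgeR and DESeq2. The unit was log2 in the ratios only, which were computed here from the deposited values.

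Ratios were log2((knockdown + 1)/(control + 1)) within a table, where the mean of both columns reached 1 CPM. The difference over both lines was tested with limma 3.58.1 (intercept only, trended empirical Bayes, 1 residual degree of freedom, Benjamini-Hochberg over 13114 genes), with edgeR 4.0.16 and DESeq2 1.42.0 on recovered reads as alternatives. All were also run on simulated counts in which a changed gene had the same change in both lines. That run cannot show how the tests behave where the lines differ. Depths of 23479051 to 52550452 reads gave the members a median half-width of the 95% counting interval of 0.08 in C4-2B ENZR and 0.05 in LNCaP (log2). Intervals are exact and conditional on the summed reads. Lengths and shared 50-base words came from GENCODE transcripts and promoters from RefSeq (GRCh38.p14), matched by symbol or older symbol for all 89 members; no hg19 coordinate was used. In 28 rows the symbol had been turned into a date; none was a member.

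The members and the gene lists were chosen with earlier results of these data known. Named were, by rule, the highest and lowest member of each complex in each line, members called the same way within both lines (log2 ratio past 0.32) or past limma, all SDH genes and CYC1, paralogs, members under 1 CPM, and the extremes of each list. At least 1 gene that this rule names is not reported here.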

Additional observations from a re-analysis of the deposited data

Results flagged for a closer look

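Of the 80 members measured in both lines, 5 (6.25%) had counting intervals in the 2 lines on opposite sides both of 0 and of the median of all genes, as had 648 of all 13114 genes (4.94%). The difference between the lines was not tested. NDUFB4, an accessory subunit of complex I, had a log2 ratio of -0.16 in C4-2B ENZR and 0.18 in LNCaP. NDUFB3, also of complex I, had 0.11 in C4-2B ENZR and -0.18 in LNCaP, and NDUFB10 had 0.078 and -0.044. ATP5G3 of the c-ring had 0.094 in C4-2B ENZR and -0.18 in LNCaP, and ATP5J2, a membrane subunit of complex V, had 0.11 and -0.21. Groups of 1 library cannot be searched for outlying samples.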

How the results depend on the processing

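Changing the pseudocount, raising the CPM minimum to 5 or leaving out members that share reads moved no count by over 1.5 times. LNCaP was scaled as deposited by a log2 knockdown over control of 0.20, against 0.08 when TMM was recomputed. In LNCaP, centring on the median gave 2 members higher, 3 lower and a median of -0.028, an equal sum gave 2, 9 and -0.11, and recomputed TMM gave 2, 4 and -0.031. A 1.5-fold difference left 1 member higher in each line. Within a line, the share of all genes called was not counted under an equal sum, recomputed TMM or the 1.5-fold cut. An equal sum also lowers every LNCaP ratio, so these counts are not read as a result about the members. The count of members that rose was 1 with no filter, with recomputed TMM in limma or edgeR, and in DESeq2, COX7A2L being lost each time; with an equal sum 1 member, ATP5G1, fell (adjusted p = 0.0410). Over all genes 554 rose and 195 fell, against 142 and 57 with no filter, 231 and 187 after centring, 351 and 653 with an equal sum, 155 and 108 with recomputed TMM, 164 and 114 with edgeR on it, and 131 and 90 in DESeq2, which gave no adjusted p for 3560 genes. The sign of the LNCaP member median thus turned under those 3 scalings. The limma fit has 1 residual degree of freedom and 276 prior ones, so its calls rest on the spread shared by all genes. No pairing by replicate was possible because the labels carry no replicate numbers. Knockdown and control were paired by line in limma, through the within-line ratios, and in edgeR and DESeq2, through a term for line. With 1 library per group no replicate could be left out.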
